A study of Mus musculus with 12 samples.

Results

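Raet1d and Raet1e encode ligands of NKG2D, an activating receptor of natural killer cells and some T cells, and were measured here in cultured mouse bone marrow cells that carried a Hoxa9 vector. They were taken as the probe sets of the deposited array table that name one of these genes and no other, which gave 14 of 1256831 probe sets, 4 for Raet1d and 10 for Raet1e. The genes were chosen with their levels in the 3 conditions of this study known: they were low in 1 condition and high in the others. Differences between conditions in their own levels are therefore given as a description, with a standard error and without a test. Tests are given only for the week of culture, for the difference of the conditions between weeks, and for other genes.

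The study asked how Meis1, a homeobox partner of Hoxa9, contributes to acute myeloid leukemia. Marrow came from female C57B/6 mice of 12 weeks that had received 5-fluorouracil, which depletes dividing cells, and the labels call the cells progenitors. All cells carried Hoxa9-GFP in an MSCV retroviral vector and grew in DMEM with fetal calf serum, IL3, SCF and IL6. The second vector held full-length Meis1 in HOXA9+MEIS1, Meis1 with its homeodomain deleted in HOXA9+MDHD, and no insert in HOXA9+MIY. Each condition had 4 arrays, 2 from week 3 and 2 from week 4 of culture. The labels speak of independent experiments but do not say whether week 3 and week 4 arrays came from the same cultures, so p-values measure the spread between these samples, part of which may be technical. In such vectors the retroviral promoter, not the genes' own control regions, drives expression in every transduced cell.

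RAE-1 proteins, the family that Raet1 genes encode, are distant relatives of MHC class I molecules, are held on the cell surface by a GPI anchor and are recognised by NKG2D. Most healthy adult tissues carry little of them, and they are known to appear on mouse embryos, on stressed or infected cells and on tumour cells. In the NK cell, NKG2D (Klrk1) signals through the adaptors DAP10 (Hcst) and DAP12 (Tyrobp). The family's names RAE-1δ and RAE-1ε belong to Raet1d and Raet1e, and other ligands of the receptor are the H60 proteins and MULT1 (Ulbp1).

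Both genes lie on mouse chromosome 10, and the Raet1d start region is nearly the same as that of the second annotated Raet1e start. The following stretches end just before the start of the gene model in RefSeq GRCm38.p6 and are shown for their likeness. Whether it bears on the levels of the genes was not tested. Raet1d is at chr10:22361644-22361891 and the second annotated start of Raet1e at chr10:22173249-22173496, both on the plus strand. Capitals mark the bases that differ.
Raet1d: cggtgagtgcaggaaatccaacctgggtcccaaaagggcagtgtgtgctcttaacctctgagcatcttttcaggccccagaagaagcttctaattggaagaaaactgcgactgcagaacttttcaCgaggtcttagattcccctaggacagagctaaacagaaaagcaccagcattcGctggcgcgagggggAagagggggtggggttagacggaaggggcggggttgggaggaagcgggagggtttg
Raet1e: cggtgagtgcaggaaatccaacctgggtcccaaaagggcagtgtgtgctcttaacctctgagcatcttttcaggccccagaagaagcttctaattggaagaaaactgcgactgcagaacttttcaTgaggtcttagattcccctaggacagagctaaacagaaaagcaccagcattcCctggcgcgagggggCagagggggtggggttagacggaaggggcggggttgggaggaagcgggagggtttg
Over these 248 aligned bases there were 3 mismatches, an identity of 98.8%. The first annotated start of Raet1e lies elsewhere and shared 30.6% of 222 aligned bases with Raet1d. Of 3 short motifs searched on both strands in the 250 bases before each start, the Meis core TGACAG and the Hox-Pbx form TGATNNAT had 0 matches at each of the 3 starts. They are present in 15.9% and 7.68% of 32851 such windows. The GC box GGGCGG had 1 match at the Raet1d start, 1 at the second Raet1e start and 2 at the first, and 32.7% of all windows hold it. A match here describes the letters in a window and says nothing of binding. These stretches lie before the transcripts, and no transcript or probe sequence was compared. Raet1 genes are known as close paralogs, and whether probe sets named for one of them also take up the other's RNA was not tested, so the values of either gene alone are uncertain in that respect.

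Values are log2 gene values, the median polish over a gene's probe sets with a mean above 6.2592, the middle of all probe sets on the array. Of the 14 probe sets 12 passed that level, all 4 of Raet1d and 8 of 10 of Raet1e. The 12 arrays correlated with each other at 0.967 to 0.985, and precision is limited by there being 4 arrays per condition. Hoxa9 had means of 13.37, 13.35 and 13.29 in HOXA9+MEIS1, HOXA9+MDHD and HOXA9+MIY and was not called in any comparison. Meis1 was higher with either Meis1 vector than in HOXA9+MIY, by 2.58 ± 0.108 (SE) in HOXA9+MEIS1 (limma, adjusted p = 1.76e-07) and by 2.36 ± 0.108 in HOXA9+MDHD (adjusted p = 1.05e-06). Both were called in all 26 alternative settings of the processing. Their size depended on the setting, at 1.85 to 5.36 for HOXA9+MEIS1 and 1.73 to 5.20 for HOXA9+MDHD, a range the SE does not cover.

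Raet1d was at a lower level in the cells with homeodomain-deleted Meis1 than in the cells of both other conditions. Its log2 value was 8.37 and 8.20 at week 3 and 8.81 and 8.72 at week 4 in HOXA9+MEIS1. In HOXA9+MDHD it was 6.91 and 7.63 at week 3 and 7.09 and 6.78 at week 4, and in HOXA9+MIY 8.19 and 7.88 at week 3 and 8.29 and 8.75 at week 4. All 4 HOXA9+MDHD arrays lay below every array of the other conditions, the highest of them at 7.63 against a lowest of 7.88 elsewhere, whereas HOXA9+MEIS1 and HOXA9+MIY overlapped. Of all genes, 2.55% lay wholly lower in HOXA9+MDHD than in HOXA9+MIY and 2.68% wholly higher in HOXA9+MEIS1 than in HOXA9+MDHD, the contrasts on which the genes were picked. The means were 8.53 ± 0.284 in HOXA9+MEIS1, 7.10 ± 0.375 in HOXA9+MDHD, against 8.28 ± 0.359 in HOXA9+MIY (SD, n = 4 each).

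Raet1e had the same order of conditions. It stood at 8.18 and 7.86 at week 3 and at 8.58 and 8.30 at week 4 in HOXA9+MEIS1. The HOXA9+MDHD arrays gave 6.41 and 7.03 at week 3 and 6.64 and 6.81 at week 4, against 7.70 and 7.47 at week 3 and 7.90 and 8.14 at week 4 in HOXA9+MIY. Again the HOXA9+MDHD arrays stood apart from all others, at no more than 7.03 against at least 7.47, and the other conditions overlapped. The means were 8.23 ± 0.299 in HOXA9+MEIS1, 6.72 ± 0.263 in HOXA9+MDHD, against 7.80 ± 0.283 in HOXA9+MIY (SD, n = 4 each).

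**Figure D1:**
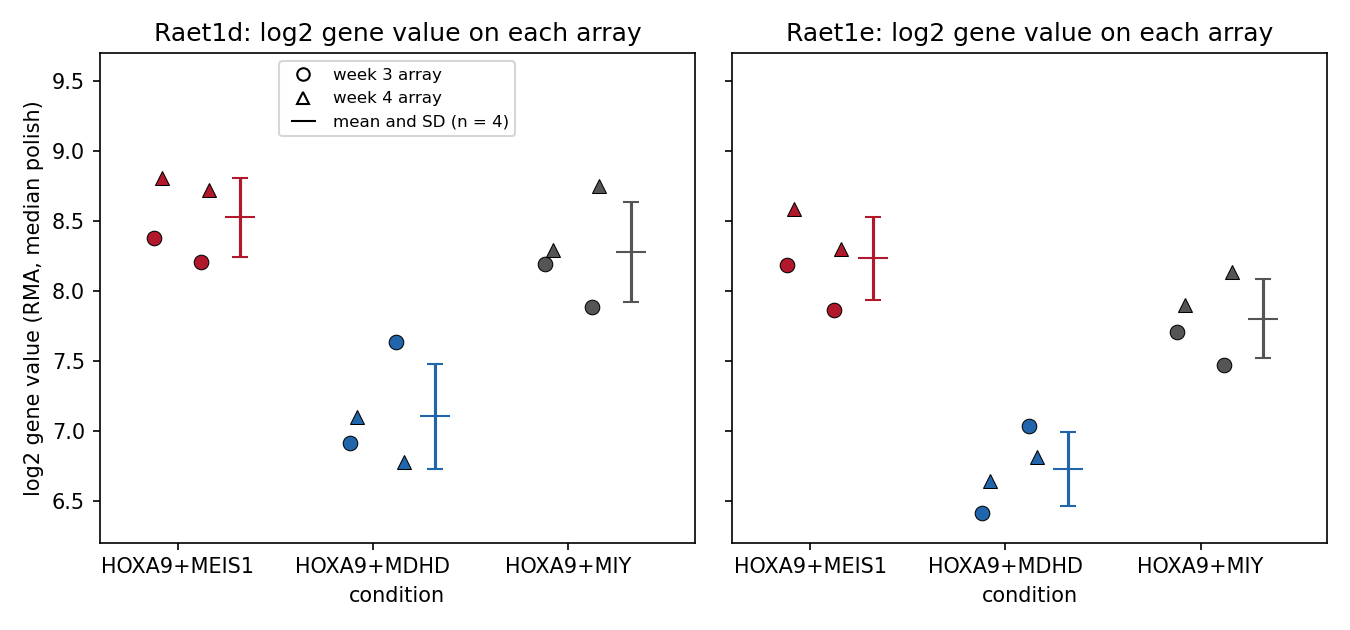
Log2 gene value of Raet1d (left) and Raet1e (right) on each of the 12 arrays, by condition, with circles for week 3, triangles for week 4 and the mean and SD of 4 arrays beside them. The HOXA9+MDHD points lie below 7.64 for Raet1d and below 7.04 for Raet1e, under all points of the other conditions.

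In fold terms, Raet1d was 2.26-fold lower in HOXA9+MDHD than in HOXA9+MIY (log2 difference -1.17 ± 0.200, SE) and Raet1e 2.11-fold lower (-1.08 ± 0.147). Full-length Meis1 stood 2.68-fold above the homeodomain-deleted form for Raet1d (1.42 ± 0.200) and 2.84-fold above it for Raet1e (1.51 ± 0.147). Set against the empty vector, HOXA9+MEIS1 was at 1.19-fold for Raet1d (0.25 ± 0.200) and 1.35-fold for Raet1e (0.43 ± 0.147), within the overlap of the arrays. For Raet1d that small difference turned on which array was in the mean, at 0.14 without HOXA9+MIY week 3 replicate 2 and 0.38 without HOXA9+MIY week 4 replicate 2. The comparisons share arrays, so they are not independent of each other. Because RNA came from whole cultures, fewer cells carrying the transcripts and less transcript per cell cannot be told apart.

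Among all genes this arrangement was uncommon. Of 20711 genes, 61 (0.295%) had all 4 HOXA9+MDHD arrays below the other 8, and 2 of these lay at least 1 log2 unit below the nearer of the other means. Those 2 genes were Raet1d, with a gap of 1.17, and Raet1e, with a gap of 1.08. The genes were picked for this arrangement, so the ranking describes them and supports nothing further.

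Single probe sets gave the same picture with different sizes. All 14 had a lower mean in HOXA9+MDHD than in HOXA9+MIY, by log2 -1.55 to -0.58 with a median of -1.25. In 12 of the 14 the arrays did not overlap, where 1.98% of the 318760 probe sets naming 1 gene showed that in this direction. The members were chosen on this contrast, and nothing is read from the excess. The exceptions were probe set 4422089 of Raet1d and probe set 4326927 of Raet1e. The Raet1d exception had 7.16, 8.01, 7.57 and 6.64 in HOXA9+MDHD against 8.20, 7.92, 8.15 and 8.75 in HOXA9+MIY, so that 1 HOXA9+MDHD array, week 3 replicate 2, crossed the lowest HOXA9+MIY array. The Raet1e exception, a dim probe set below the filter, had 5.37, 4.43, 4.78 and 6.55 in HOXA9+MDHD against 6.32, 6.40, 6.59 and 7.16 in HOXA9+MIY. There the crossing array was HOXA9+MDHD week 4 replicate 2.

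The widest gap was that of probe set 4326148 of Raet1e. It had 8.41, 8.14, 8.70 and 8.45 in HOXA9+MEIS1, 6.04, 7.11, 6.47 and 6.04 in HOXA9+MDHD, against 8.05, 7.84, 8.15 and 7.80 in HOXA9+MIY, a difference of -1.55 ± 0.213 between HOXA9+MDHD and HOXA9+MIY. Of the Raet1d probe sets 5589659 had the widest gap, at -1.39 ± 0.190. Its arrays read 8.79, 8.76, 9.51 and 9.35 in HOXA9+MEIS1, 7.27, 7.75, 7.15 and 7.68 in HOXA9+MDHD, against 8.43, 8.53, 8.92 and 9.51 in HOXA9+MIY. The brightest probe set, 5132866 of Raet1e with a mean of 8.83 over all arrays, had one of the smaller gaps at -0.69 ± 0.120. In it the arrays gave 9.26, 8.90, 9.19 and 9.43 in HOXA9+MEIS1, 8.22, 8.30, 8.18 and 8.55 in HOXA9+MDHD, against 9.12, 8.90, 8.97 and 9.02 in HOXA9+MIY.

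Probe set 5149760 of Raet1e had the smallest gap between HOXA9+MDHD and HOXA9+MIY (-0.58 ± 0.172) and the largest between HOXA9+MEIS1 and HOXA9+MIY (0.70 ± 0.172). Its values were 7.89, 7.33, 8.27 and 7.74 in HOXA9+MEIS1, 6.59, 6.33, 6.60 and 6.60 in HOXA9+MDHD, against 6.88, 6.90, 7.19 and 7.46 in HOXA9+MIY.

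All 14 probe sets were higher in HOXA9+MEIS1 than in HOXA9+MDHD, by 0.88 to 2.01 with a median of 1.51, and 13 of them without overlap (2.14% of all named probe sets). Against HOXA9+MIY, 13 of 14 had a higher mean in HOXA9+MEIS1 and 1 a lower one, probe set 5221537 of Raet1e at -0.08, with a median of 0.34 and a highest value of 0.70. Only probe set 4757713 of Raet1e did not overlap there, against 4% of all named probe sets. It was also the 1 member without overlap in all 3 pairs, with 7.36, 7.03, 7.53 and 7.20 in HOXA9+MEIS1, 5.60, 6.17, 6.09 and 5.84 in HOXA9+MDHD, against 6.63, 6.77, 6.96 and 6.91 in HOXA9+MIY. In HOXA9+MDHD, 4 of the 10 Raet1e probe sets had a mean under 6.2592 and 0 of the 4 Raet1d probe sets did, so the true size of the Raet1e gap is uncertain at its low end. No group mean lay under that level in HOXA9+MEIS1 or HOXA9+MIY.

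**Figure D2:**
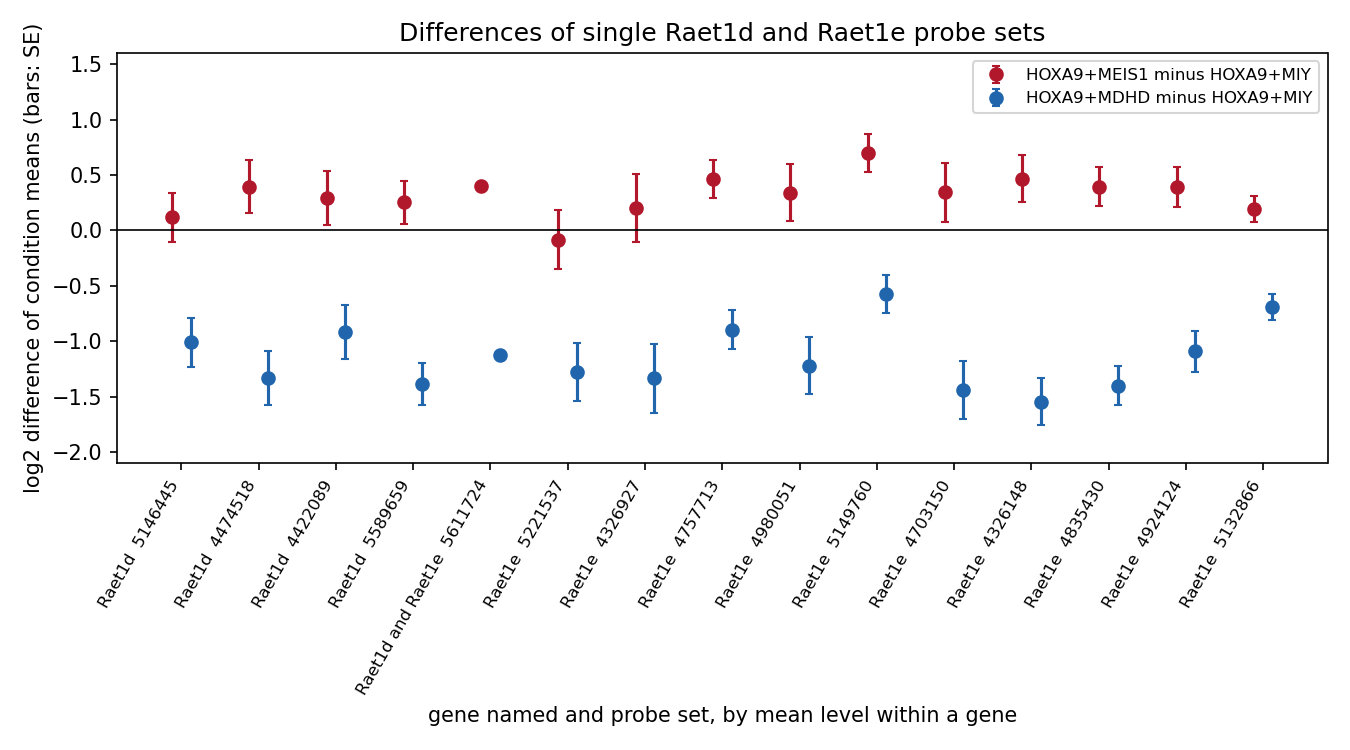
Log2 difference of each of the 14 probe sets and of the probe set naming both genes, HOXA9+MDHD minus HOXA9+MIY and HOXA9+MEIS1 minus HOXA9+MIY, with bars for limma's standard error except on the probe set naming both, which was outside the fit. Every HOXA9+MDHD point lies between -1.55 and -0.58, and 13 of the 14 HOXA9+MEIS1 points of the members lie above 0.

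One further probe set, 5611724, names both genes and is not among the 14. It stood at 7.75 ± 0.330 in HOXA9+MEIS1, 6.22 ± 0.221 in HOXA9+MDHD, against 7.34 ± 0.476 in HOXA9+MIY (SD, n = 4 each), the HOXA9+MDHD mean again under 6.2592. Over the 12 arrays Raet1d and Raet1e correlated at r = 0.967, and at 0.846 after the condition means were removed. The probe set naming both followed Raet1e (r = 0.975) and Raet1d (r = 0.944). Both genes were read from the same arrays and conditions, so the correlations are a description and carry no test.

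The genes were picked on differences between conditions, and the week of culture was tested. Earlier results of these arrays were known by then, so the week p-values may not be free of the choice. Across conditions Raet1e averaged 0.28 ± 0.120 (SE) higher at week 4 than at week 3 (limma, adjusted p = 0.0807) and Raet1d 0.21 ± 0.164 higher (adjusted p = 0.360), and neither passed the threshold of 0.05. In comparison 39.8% of all genes passed it for week. The Raet1d means at week 3 and week 4 were 8.29 and 8.76 in HOXA9+MEIS1, 7.27 and 6.94 in HOXA9+MDHD, against 8.04 and 8.52 in HOXA9+MIY. For Raet1e they were 8.02 and 8.44 in HOXA9+MEIS1, 6.72 and 6.73 in HOXA9+MDHD, against 7.59 and 8.02 in HOXA9+MIY. Week 4 means were thus above week 3 means in HOXA9+MEIS1 and HOXA9+MIY for both genes, while in HOXA9+MDHD they were lower for Raet1d and nearly equal for Raet1e.

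One array weighed on this result. Without HOXA9+MDHD week 3 replicate 2, the array of that condition with the highest value of both genes, the week difference was 0.36 for Raet1d (adjusted p = 0.0208) and 0.40 for Raet1e (adjusted p = 0.00265). Without HOXA9+MDHD week 4 replicate 1, Raet1e was at 0.34 (adjusted p = 0.0457).

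The gap between HOXA9+MDHD and HOXA9+MIY was wider at week 4. It was -0.77 at week 3 and -1.58 at week 4 for Raet1d, and -0.86 and -1.29 for Raet1e. The difference between weeks was -0.82 ± 0.324 for Raet1d and -0.43 ± 0.283 for Raet1e (limma interaction, adjusted p = 0.999 for each). Between HOXA9+MEIS1 and HOXA9+MDHD it was 0.81 ± 0.324 for Raet1d (adjusted p = 0.648) and 0.42 ± 0.283 for Raet1e (adjusted p = 0.764), with gaps of 1.02 at week 3 and 1.82 at week 4 for Raet1d and of 1.30 and 1.72 for Raet1e. HOXA9+MEIS1 minus HOXA9+MIY differed between the weeks by -0.01 for both genes. Of 20711 genes limma called 0 in each of these 3 interaction contrasts (0%), while 1011, 1557 and 1358 had an unadjusted p under 0.05 for HOXA9+MDHD minus HOXA9+MIY, HOXA9+MEIS1 minus HOXA9+MDHD and HOXA9+MEIS1 minus HOXA9+MIY. For Raet1d the unadjusted p was 0.0304 for HOXA9+MDHD minus HOXA9+MIY and 0.0320 for HOXA9+MEIS1 minus HOXA9+MDHD. The interaction compares gaps on which the genes were picked, so its p-values are not free of that choice. With 2 arrays per condition and week, unequal gaps at the 2 weeks were not established for either gene.

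The other genes of the pathway are outside the rule that chose Raet1d and Raet1e, and they were tested in the fit over all genes. Of the 7 other NKG2D ligand genes listed, 2 were measured, and Raet1a, Raet1b, Raet1c, H60a and Ulbp1 were not analysed here. H60b, a ligand gene that lies between Raet1e and Raet1d in the RefSeq GRCm38.p6 gene order, had 7.72, 7.52, 7.96 and 7.93 in HOXA9+MEIS1, 7.35, 7.62, 7.44 and 7.64 in HOXA9+MDHD, against 7.63, 7.50, 7.75 and 7.88 in HOXA9+MIY. The 3 conditions overlapped. Its differences were -0.18 ± 0.0865 for HOXA9+MDHD minus HOXA9+MIY (limma, adjusted p = 0.403) and 0.27 ± 0.0865 for HOXA9+MEIS1 minus HOXA9+MDHD (adjusted p = 0.120), the same signs as for Raet1d and Raet1e but neither past the threshold. H60c, read by 1 probe set, averaged 8.89, 9.00 and 8.94 in HOXA9+MEIS1, HOXA9+MDHD and HOXA9+MIY and was not called in any pair. Of the 2 ligand genes limma called 0 in each pair of conditions, and 1 had an unadjusted p under 0.05, in HOXA9+MEIS1 minus HOXA9+MDHD. Of all genes 10.8% were called in HOXA9+MEIS1 minus HOXA9+MIY, 1.97% in HOXA9+MDHD minus HOXA9+MIY and 4.39% in HOXA9+MEIS1 minus HOXA9+MDHD.

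On the receptor side, Klrk1, the NKG2D gene itself, was near the level of dim probe sets. It had 1 probe set above the filter, with 6.13, 5.78, 6.13 and 6.43 in HOXA9+MEIS1, 6.28, 5.61, 6.64 and 6.43 in HOXA9+MDHD, against 6.40, 6.39, 6.63 and 6.99 in HOXA9+MIY. The means of HOXA9+MEIS1 and HOXA9+MDHD lay under 6.2592, and neither condition was called against HOXA9+MIY (adjusted p = 0.0736 and 0.337, limma). Hcst, which encodes DAP10, was at 8.24, 8.02 and 8.19 in HOXA9+MEIS1, HOXA9+MDHD and HOXA9+MIY and was not called.

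Tyrobp, which encodes the adaptor DAP12 and is also abundant in macrophages and neutrophils, fell with full-length Meis1. It read 11.51, 11.29, 11.56 and 11.57 in HOXA9+MEIS1, 11.91, 11.55, 11.87 and 12.09 in HOXA9+MDHD, against 12.09, 12.14, 12.06 and 11.99 in HOXA9+MIY. HOXA9+MEIS1 lay below HOXA9+MIY on all arrays, by -0.59 ± 0.0909 (limma, adjusted p = 0.00109). HOXA9+MEIS1 also fell against HOXA9+MDHD (-0.37 ± 0.0909, adjusted p = 0.0390), a call that held in 11 of 26 alternatives and ended when any of 9 arrays was left out. HOXA9+MDHD minus HOXA9+MIY was -0.22 ± 0.0909 (adjusted p = 0.318). Of the 9 genes of the receptor and its adaptors, Tyrobp was the 1 called in HOXA9+MEIS1 against HOXA9+MIY, where 10.8% of all genes were called (5.25% higher and 5.52% lower), and the 1 called in HOXA9+MEIS1 against HOXA9+MDHD, where 4.39% were (2.28% higher and 2.11% lower). In HOXA9+MDHD against HOXA9+MIY, limma called 0 of 9, with 3 at an unadjusted p under 0.05, where 1.97% of all genes were called (0.942% higher and 1.03% lower).

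**Figure D3:**
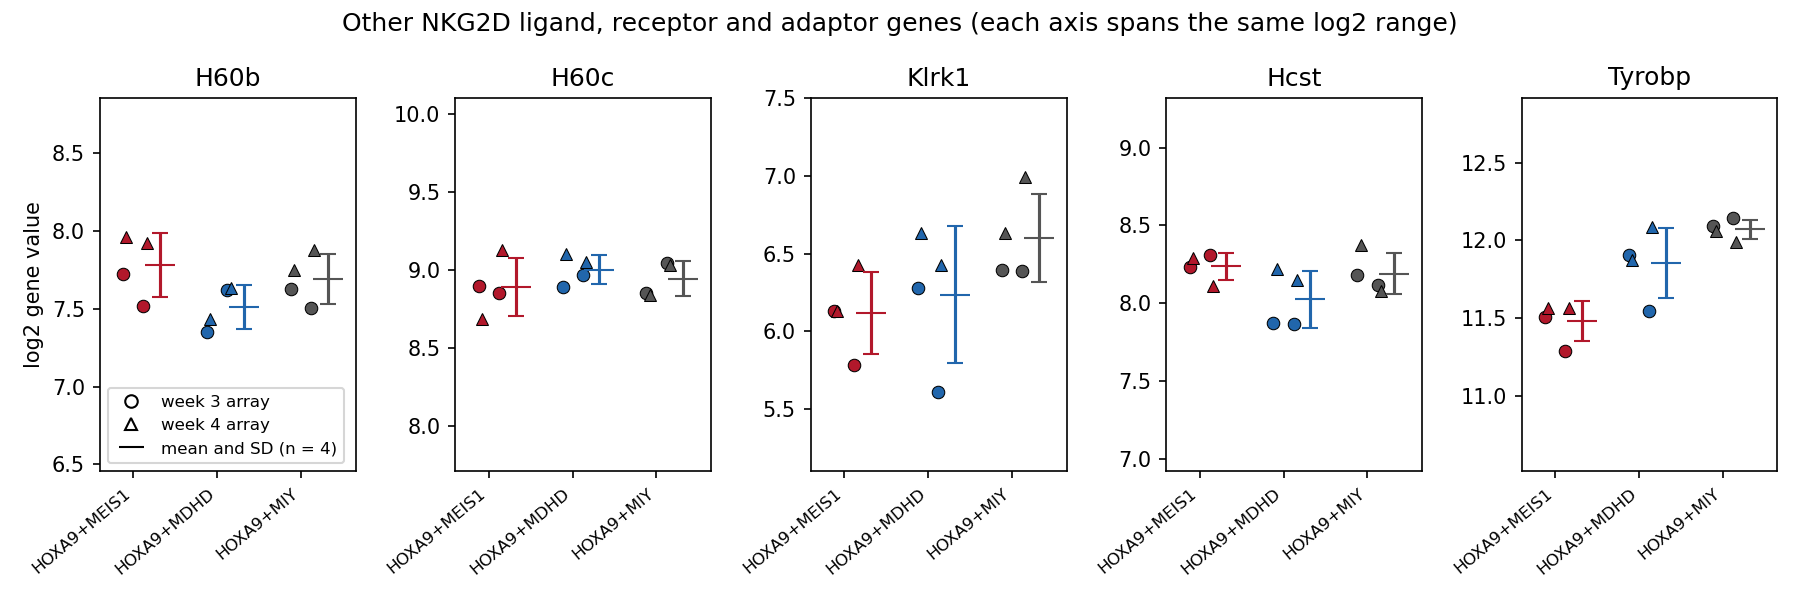
Log2 gene values of genes of the NKG2D pathway on each array by condition, with the mean and SD of 4 arrays (circles week 3, triangles week 4). Tyrobp is lower in HOXA9+MEIS1 than in HOXA9+MIY, and H60b and Hcst overlap between conditions.

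Processes tied to NKG2D ligand levels elsewhere were followed through 4 lists. Of 14 genes of E2F factors and replication, named because E2F factors are known to raise Raet1 transcription in mouse cells, limma called 0 in each pair, with 5, 0 and 4 at an unadjusted p under 0.05 in HOXA9+MEIS1 minus HOXA9+MIY, HOXA9+MDHD minus HOXA9+MIY and HOXA9+MEIS1 minus HOXA9+MDHD. Of all genes 10.8%, 1.97% and 4.39% were called in the same order. The list's median log2 difference was -0.14, -0.01 and -0.14 in that order too, against -0.01, -0.01 and 0.01 over all genes. Of 12 measured DNA damage response genes, 2 rose and 1 fell in HOXA9+MEIS1 against HOXA9+MIY, a comparison in which 5.25% of all genes rose and 5.52% fell. Trp53bp1, a protein that gathers at double-strand breaks, rose by 0.36 ± 0.0771 (adjusted p = 0.00863), and the damage kinase gene Atm by 0.24 ± 0.0660 (adjusted p = 0.0355), a call lost when any of 6 arrays was left out. H2afx, the histone variant phosphorylated at breaks, fell by 0.33 (adjusted p = 0.0132) and was not called without HOXA9+MIY week 4 replicate 1. In HOXA9+MDHD against HOXA9+MIY and in HOXA9+MEIS1 against HOXA9+MDHD limma called 0 of the 12, with 3 and 2 at an unadjusted p under 0.05. Of all genes 1.97% and 4.39% were called there.

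Of 17 measured regulators tied to NKG2D ligand expression, 2 rose and 1 fell in HOXA9+MEIS1 against HOXA9+MIY (5.25% and 5.52% of all genes). Eif4e, the cap-binding translation factor, rose by 0.30 ± 0.0635 (limma, adjusted p = 0.00848), and Pik3cb, a PI3 kinase subunit, by 0.28 ± 0.0623 (adjusted p = 0.0122). Myd88, the adaptor of Toll-like receptors, fell by 0.33 (adjusted p = 0.00569). Pik3cb was also higher in HOXA9+MEIS1 than in HOXA9+MDHD (0.33 ± 0.0623, adjusted p = 0.00951), the 1 call of the list there, where 4.39% of all genes were called. In HOXA9+MDHD against HOXA9+MIY limma called 0 of 17, with 2 at an unadjusted p under 0.05, where 1.97% of all genes were called.

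Of 16 genes of ligand shedding and the GPI anchor, 1 rose and 2 fell in HOXA9+MEIS1 against HOXA9+MIY (5.25% and 5.52% of all genes). Mmp9, a secreted protease that is also a product of neutrophils and macrophages, had 6.98, 7.13, 6.90 and 6.74 in HOXA9+MEIS1, 7.56, 7.11, 7.96 and 7.87 in HOXA9+MDHD, against 8.04, 8.00, 8.63 and 8.24 in HOXA9+MIY. The HOXA9+MEIS1 arrays lay under all HOXA9+MIY arrays, a fall of -1.29 ± 0.161 (limma, adjusted p = 2.35e-04). It was also lower in HOXA9+MEIS1 than in HOXA9+MDHD (-0.69 ± 0.161, adjusted p = 0.0318), which was no longer called when any of 5 arrays was left out. Mmp2, another secreted protease, fell by 0.25 (adjusted p = 0.0151), a call lost when any of 3 arrays was left out. Pign, which acts in GPI anchor synthesis, rose by 0.23 ± 0.0554 (adjusted p = 0.0168), a call lost without HOXA9+MIY week 3 replicate 1 or HOXA9+MIY week 4 replicate 1. HOXA9+MDHD against HOXA9+MIY had 0 of 16 called by limma, with 3 at an unadjusted p under 0.05, where 1.97% of all genes were called.

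Of 13 MHC class I and antigen processing genes, 2 rose in HOXA9+MEIS1 against HOXA9+MIY (5.25% of all genes). H2-T23, which encodes the nonclassical Qa-1 molecule read by NKG2A, had 8.88, 8.82, 9.45 and 9.48 in HOXA9+MEIS1 against 8.45, 8.42, 8.84 and 8.76 in HOXA9+MIY, a rise of 0.54 ± 0.0938 (limma, adjusted p = 0.00260). H2-K1, a classical class I heavy chain, rose by 0.18 ± 0.0498 (adjusted p = 0.0345), a call lost when any of 6 arrays was left out. HOXA9+MEIS1 was also above HOXA9+MDHD for H2-K1 (0.21 ± 0.0498, adjusted p = 0.0327), which ended when any of 7 arrays was left out. In HOXA9+MDHD against HOXA9+MIY, limma called 0 of 13, with 2 at an unadjusted p under 0.05, where 1.97% of all genes were called. The class I genes are near-identical to each other in places, so their values may be mixed between family members.

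Among 11 measured genes for other surface molecules of NK cell recognition, ligands and receptors alike, 2 rose and 1 fell in HOXA9+MEIS1 against HOXA9+MIY (5.25% and 5.52% of all genes). Cd274, which encodes the inhibitory ligand PD-L1, read 9.19, 9.00, 9.62 and 9.81 in HOXA9+MEIS1, 9.42, 9.15, 10.29 and 10.54 in HOXA9+MDHD, against 10.07, 9.96, 10.95 and 10.83 in HOXA9+MIY. All HOXA9+MEIS1 arrays lay below those of HOXA9+MIY, whereas HOXA9+MDHD overlapped both. It fell against HOXA9+MIY with both Meis1 vectors, with log2 differences of -1.05 ± 0.109 for HOXA9+MEIS1 (limma, adjusted p = 6.66e-05) and -0.60 ± 0.109 for HOXA9+MDHD (adjusted p = 0.0178). The HOXA9+MDHD call, the 1 call among all pathway lists in that pair, was lost without HOXA9+MIY week 3 replicate 1, HOXA9+MIY week 4 replicate 1 or HOXA9+MDHD week 4 replicate 1.

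Clec2i, a lectin-like ligand of NKR-P1 receptors, rose in HOXA9+MEIS1 by 0.48 ± 0.0696 against HOXA9+MIY (limma, adjusted p = 7.34e-04) and by 0.42 ± 0.0696 against HOXA9+MDHD (adjusted p = 0.00422). Tnfrsf10b, the mouse TRAIL receptor, rose by 0.57 ± 0.134 against HOXA9+MIY (adjusted p = 0.0169), a call lost without HOXA9+MEIS1 week 3 replicate 1 or HOXA9+MEIS1 week 4 replicate 2. Cd274 was also lower in HOXA9+MEIS1 than in HOXA9+MDHD (-0.45 ± 0.109, adjusted p = 0.0396), a call that ended when any of 10 arrays was left out. Over the 8 pathway lists 15 of 94 measured genes (16%) were called in HOXA9+MEIS1 against HOXA9+MIY, 1 (1.06%) in HOXA9+MDHD against HOXA9+MIY and 6 (6.38%) in HOXA9+MEIS1 against HOXA9+MDHD, where 10.8%, 1.97% and 4.39% of all genes were called. Without the week term those counts were 3, 0 and 0.

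The genes around Raet1d and Raet1e on chromosome 10, in the RefSeq GRCm38.p6 order, were looked at after the values of these arrays were known. The 7 measured neighbours were Sgk1, 4930444G20Rik, E030030I06Rik, H60b, Slc2a12, Tbpl1 and Tcf21. In HOXA9+MDHD against HOXA9+MIY limma called 0 of 7, where 1.97% of all genes were called. The differences of the 7 ran between -0.18 and 0.31 with a lowest adjusted p of 0.403. Sgk1, a serum- and glucocorticoid-induced kinase, was the 1 neighbour called elsewhere. It rose in HOXA9+MEIS1 by 0.68 ± 0.0898 against HOXA9+MIY (adjusted p = 3.46e-04) and by 0.62 ± 0.0898 against HOXA9+MDHD (adjusted p = 0.00174).

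Genes most like Raet1d and Raet1e were ranked by Pearson r over the 12 arrays among 2924 genes with an SD of at least 0.3. Gene models without a proper name, small RNAs and Raet1 genes had been left out of these 2924. For Raet1d they were Olfr508 (r = 0.809), Pgk2 (0.763), Ssxb6 (0.742), Cgnl1 (0.736) and Rcn3 (0.726). For Raet1e they were Olfr508 (r = 0.838), Cgnl1 (0.833), Ssxb6 (0.820), Olr1 (0.812) and Ndrg2 (0.788). Over the 12 arrays their likeness to the pair was below that between Raet1d and Raet1e (r = 0.967). Once condition means were removed, Olfr508 correlated with Raet1e at 0.848, close to the 0.846 between Raet1d and Raet1e, and with Raet1d at 0.631. The other like genes ran from -0.18 to 0.53 there.

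Several of the like genes are dim. The mean of Olfr508, an olfactory receptor gene, in HOXA9+MDHD was 6.00, and those of Pgk2, the testis form of phosphoglycerate kinase, and Ssxb6 were 6.23 and 6.25, all under 6.2592. The brighter ones had the same order of means as the pair, with other step sizes. Cgnl1, which encodes the junction protein paracingulin, averaged 9.27 in HOXA9+MEIS1, 8.14 in HOXA9+MDHD, against 8.75 in HOXA9+MIY, and its correlation with Raet1d was -0.18 once condition means were removed. HOXA9+MEIS1 exceeded HOXA9+MDHD for Cgnl1 by 1.13 ± 0.153 (limma, adjusted p = 0.00120), while HOXA9+MDHD minus HOXA9+MIY was -0.61 ± 0.153 (adjusted p = 0.0751). Rcn3, a calcium-binding protein of the endoplasmic reticulum, averaged 11.07, 8.24 and 9.03 in HOXA9+MEIS1, HOXA9+MDHD and HOXA9+MIY. Its largest called step from the empty vector was a rise of 2.03 ± 0.342 in HOXA9+MEIS1 (limma, adjusted p = 0.00202). HOXA9+MDHD minus HOXA9+MIY was not called for Rcn3 (-0.80, adjusted p = 0.332), Olr1 (-0.50, adjusted p = 0.309) or Ndrg2 (-0.77, adjusted p = 0.148). HOXA9+MEIS1 minus HOXA9+MDHD was called by limma for Rcn3 (2.83, adjusted p = 5.05e-04), Olr1 (0.96, adjusted p = 0.0203) and Ndrg2 (1.30, adjusted p = 0.00871). These genes were ranked on arrays of the same conditions, and the ranking carries no test.

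Marker genes of mature myeloid cells also differed between conditions, in another order than Raet1d and Raet1e. The mean log2 level of 10 macrophage and monocyte markers ran over 8.43 to 8.72 in HOXA9+MEIS1, 9.52 to 10.36 in HOXA9+MDHD, against 10.33 to 10.47 in HOXA9+MIY. Of these 10 markers 1 was called higher and 8 lower in HOXA9+MEIS1 against HOXA9+MIY, and 1 higher and 4 lower in HOXA9+MDHD against HOXA9+MIY. Over all genes the shares were 5.25% higher and 5.52% lower in the comparison with HOXA9+MEIS1, and 0.942% and 1.03% in that with HOXA9+MDHD. For 9 measured late neutrophil markers the level ran over 8.09 to 8.48 in HOXA9+MEIS1, 8.74 to 10.57 in HOXA9+MDHD, against 10.48 to 11.29 in HOXA9+MIY. Against HOXA9+MIY 9 and 4 of them were called lower. In HOXA9+MEIS1 against HOXA9+MDHD 1 macrophage marker was called higher and 7 lower, and 0 and 5 late neutrophil markers (2.28% and 2.11% of all genes). HOXA9+MEIS1, lowest in the mean level of both lists, had the highest means of Raet1d and Raet1e. HOXA9+MDHD stood between the other conditions in the mean level of both lists and lowest in both genes. Single markers departed from that order. Emr1 averaged 12.10, 11.64 and 11.03 in HOXA9+MEIS1, HOXA9+MDHD and HOXA9+MIY, and Lcn2 averaged 12.47, 12.31 and 12.93. HOXA9+MDHD week 4 replicate 2 had the highest macrophage and neutrophil levels of its condition, where its Raet1d value of 6.78 was the lowest and its Raet1e value of 6.81 the second highest.

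Markers of progenitors, which the labels name as the cell type, averaged 9.59 to 9.84 in HOXA9+MEIS1, 9.36 to 9.80 in HOXA9+MDHD, against 8.86 to 8.98 in HOXA9+MIY over 10 measured genes. The 10 include Meis1, which both Meis1 vectors supply, so part of the higher mean comes from the vectors. Against HOXA9+MIY 6 rose and 1 fell in HOXA9+MEIS1, where 5.25% of all genes rose and 5.52% fell. In HOXA9+MDHD 5 rose and 1 fell, where 0.942% and 1.03% of all genes did. Meis1 itself was among the genes that rose in both. HOXA9+MEIS1 against HOXA9+MDHD had 1 called higher, Flt3 (2.49), and 2 lower, Ly6a (-2.19) and Evi1 (-0.75). There 2.28% and 2.11% of all genes were called higher and lower. The 12 NK and T cell markers ran over 7.49 to 7.88 in HOXA9+MEIS1, 7.55 to 7.85 in HOXA9+MDHD, against 7.66 to 7.73 in HOXA9+MIY. For HOXA9+MEIS1 and for HOXA9+MDHD against HOXA9+MIY, limma called 0 of those 12, each with 1 at an unadjusted p under 0.05. Of all genes 10.8% and 1.97% were called there. In HOXA9+MEIS1 against HOXA9+MDHD it called 1 of the 12, with 4 at an unadjusted p under 0.05, where 2.28% of all genes rose. That gene, Nkg7, rose by 1.25 ± 0.302 (limma, adjusted p = 0.0363). Its means were 10.87, 9.62 and 10.28 in HOXA9+MEIS1, HOXA9+MDHD and HOXA9+MIY, the same order as for Raet1d and Raet1e. Gzmb of the same list went the other way, at 7.62 in HOXA9+MEIS1, 9.42 in HOXA9+MDHD and 8.20 in HOXA9+MIY. HOXA9+MEIS1 minus HOXA9+MDHD was -1.80 ± 0.763 for Gzmb and was not called (limma, adjusted p = 0.273). The part of cell makeup in the levels of Raet1d and Raet1e was not tested.

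**Figure D4:**
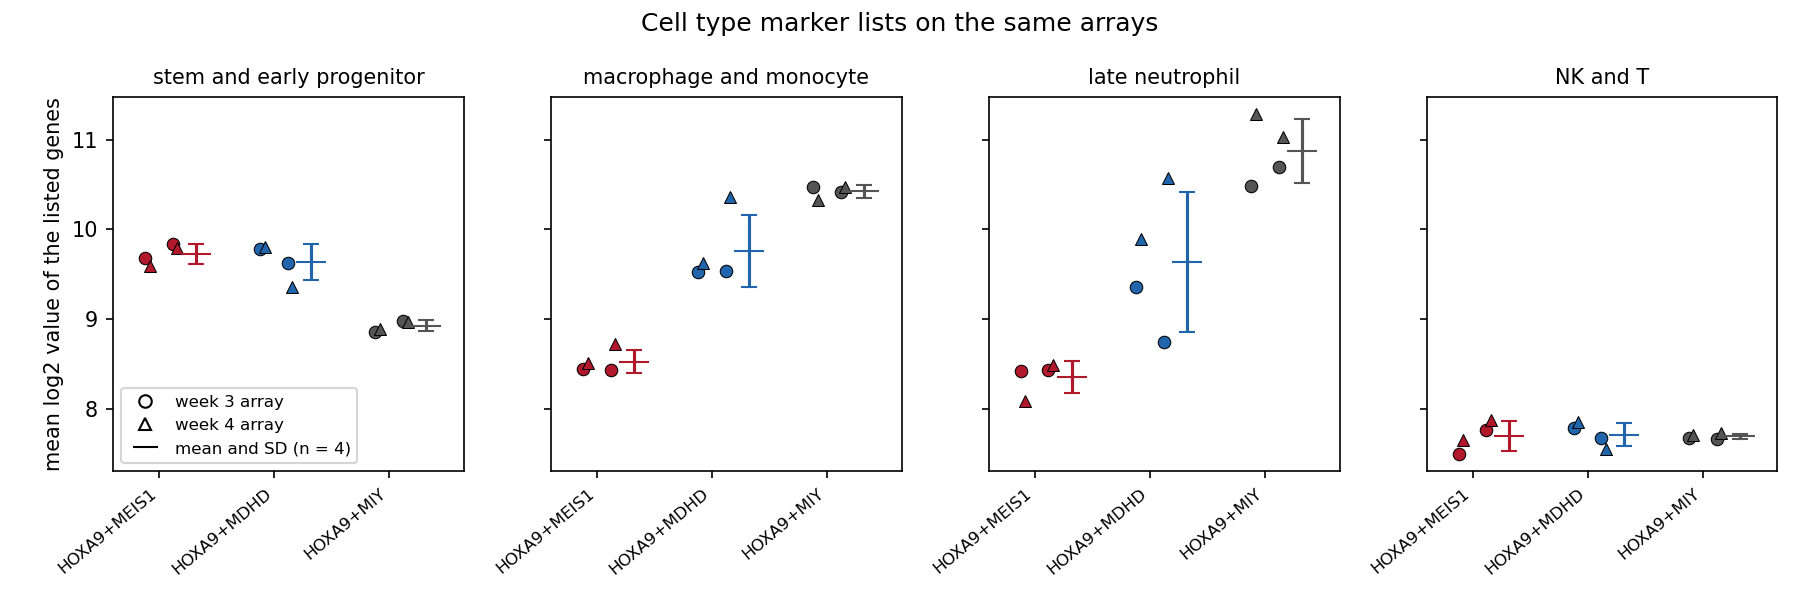
Mean log2 level of the stem and early progenitor, macrophage and monocyte, late neutrophil, and NK and T marker lists, by condition, with points for arrays. Macrophage and late neutrophil markers run lowest in HOXA9+MEIS1, between 8.09 and 8.72, and highest in HOXA9+MIY, between 10.33 and 11.29. HOXA9+MDHD week 4 replicate 2, at 10.36 for macrophage and 10.57 for late neutrophil markers, lies within the HOXA9+MIY range of each.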

How the data were processed

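RNA of 12 samples was fragmented, given a biotin label with a kit from the array's maker and hybridised to Affymetrix mouse exon arrays, 1 array per sample. The authors deposited log2 values per probe set, made with RMA in Affymetrix Expression Console per the submitters' processing notes, with versions not given in the sources used here. RMA adjusts background and makes the arrays' distributions alike, so values are relative within this set, and a shift common to most transcripts cannot be seen in them.

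Of 1256831 probe sets 318760 named 1 gene symbol in the platform annotation, 6684 named several and 931387 none. Probe sets with a mean over the 12 arrays above 6.2592, the 50th percentile over the whole table, were kept (233798 with 1 symbol), and each of 20711 genes was summarised by median polish (at most 50 iterations). The fit used limma 3.58.1 in R 4.3.3 (lmFit, eBayes with trend, two-sided, 8 residual degrees of freedom) with condition and week over all arrays. A second model held condition by week terms. Calls needed a p under 0.05 after Benjamini-Hochberg adjustment across the 20711 genes. Single probe sets were fitted the same way over those naming 1 gene, for standard errors. The code was tested on simulated data. Tables were handled with the R package data.table (version 1.17.8) and pandas 2.3.3 in Python 3.11.15, and plots with matplotlib 3.10.9.

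The members, lists, markers and comparisons were chosen with earlier results of these data known. The text names Raet1d, Raet1e, the other measured ligand genes, Klrk1, Hcst and Tyrobp, and Hoxa9 and Meis1. From each other list it names up to 4 called genes with the largest change in HOXA9+MEIS1 against HOXA9+MIY and up to 2 in HOXA9+MDHD against HOXA9+MIY. For each member it names the 5 genes with the highest r among those ranked. Chromosome 10 neighbours and some marker genes are named besides. The lists covered other NKG2D ligands, the receptor and its adaptors, DNA damage response, E2F factors and replication, regulators of ligand expression, shedding and GPI anchor, MHC class I, and other surface molecules of NK cell recognition. Marker lists covered NK and T cells, macrophages, late neutrophils, progenitors, mast cells, erythroid cells, B cells, and stroma with endothelium. Mast cell markers ran over 8.27 to 8.43 in HOXA9+MEIS1, 8.01 to 9.46 in HOXA9+MDHD and 8.16 to 8.80 in HOXA9+MIY. Of the mast cell, erythroid, B cell and stroma lists, 8, 5, 6 and 8 genes were measured. In HOXA9+MEIS1 against HOXA9+MIY 1, 1, 0 and 2 rose and 0, 0, 1 and 0 fell (5.25% and 5.52% of all genes). At an unadjusted p under 0.05 there were 3, 1, 1 and 3 (limma). In HOXA9+MDHD against HOXA9+MIY 0, 1, 0 and 2 rose and 0 fell in each (limma, with 4, 1, 1 and 4 at an unadjusted p under 0.05). Of all genes 0.942% rose and 1.03% fell there. In HOXA9+MEIS1 against HOXA9+MDHD 0, 0, 0 and 3 rose and 0 fell in each (2.28% and 2.11% of all genes). Start-region sequences came from RefSeq GRCm38.p6, and the array's genome build is not given in the sources used here.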

Additional observations from a re-analysis of the deposited data

Results flagged for a closer look

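Of 66 groups of 4 arrays checked, 2 held an array far from the other 3, where chance gives about 1 in 20. In probe set 5149760 of Raet1e, HOXA9+MDHD week 3 replicate 2 was at 6.33, under the 6.59, 6.60 and 6.60 of the other HOXA9+MDHD arrays. That array had the highest gene value of Raet1e in its condition (7.03). In probe set 5221537 of Raet1e, HOXA9+MDHD week 4 replicate 1 was at 5.43, above 5.03, 4.98 and 5.00. This probe set lies below the level of the filter and is in no gene value.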

How the results depend on the processing

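In 26 alternatives the differences of Raet1d and Raet1e between conditions kept their signs. Raet1d ran over -1.58 to -0.77 for HOXA9+MDHD minus HOXA9+MIY, 1.02 to 1.82 for HOXA9+MEIS1 minus HOXA9+MDHD and 0.14 to 0.38 for HOXA9+MEIS1 minus HOXA9+MIY, and Raet1e over -1.29 to -0.86, 1.30 to 1.72 and 0.34 to 0.52. The extremes of Raet1d came from one week alone: -0.77 and 1.02 at week 3, -1.58 and 1.82 at week 4. Leaving out 1 array at a time, the week difference was 0.12 to 0.36 for Raet1d and 0.23 to 0.40 for Raet1e. The Raet1e week difference passed the threshold when the filter on dim probe sets was stricter (0.52, adjusted p = 0.00705, fewer probe sets), with median centring (0.33, adjusted p = 0.0393) and with the replicate number as a block (0.28, adjusted p = 0.0468, limma). Same-numbered arrays of different conditions within a week deviated together in 1 of 6 pairs (correlations between -0.11 and 0.13, over 0.1 in 1), and those of one condition at the 2 weeks in 1 of 3 (-0.07 to 0.14), so the numbers were not taken to pair the arrays. With a replicate block of number within condition across weeks, chosen after seeing the data, the week difference was 0.28 for Raet1e (adjusted p = 0.0470, limma) and 0.21 for Raet1d (adjusted p = 0.417). In 21 alternatives the interaction stayed uncalled for both genes. Called genes over the pathway lists, 1 in HOXA9+MDHD minus HOXA9+MIY, were 3 with the stricter filter or quantile normalization, 2 with the mean of the probe sets, median centring, cyclic loess or week 3 arrays, and 0 with no week term or week 4 arrays. Leaving out both HOXA9+MDHD arrays of number 1 or of number 2, choices made after seeing the data, gave 0 and 2. In HOXA9+MEIS1 minus HOXA9+MDHD the 6 calls were 10 with quantile normalization, 3 with eBayes without trend, 0 with no week term, 1 with week 3 arrays, and 2 with week 4 arrays or only the 2 groups compared. In HOXA9+MEIS1 minus HOXA9+MIY the 15 calls were 3 with no week term, 6 with week 3 or week 4 arrays and 23 with only the 2 groups compared. Without 1 array they were 0 to 2, 2 to 8 and 12 to 20 in that order. Over all genes the counts ran over 11 to 1109 (409 in the report's fit), 210 to 1245 (910) and 809 to 3081 (2231). For single named genes 1490 values kept their call or lack of it, 126 lost a call and 19 gained one. The cause of these moves was not tested. Dim Raet1e probe sets in HOXA9+MDHD limit the size of its gap.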
